A study of Capra hircus with 2 samples.

Results

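miR-21 and miR-21* are the 2 mature strands that one hairpin precursor, mir-21, gives rise to, and they were 2 of the 346 conserved miRNAs that the study lists for the mammary gland of the dairy goat. Each strand was counted from its listed sequence: a tag (a distinct read sequence) belonged to a strand when it was identical to that sequence for at least 18 nt from the 5′ end, whatever its 3′ end. Small RNA from the mammary gland of Xinong Saanen dairy goats, 2.5 years old, was sequenced in 1 dry period library and 1 peak lactation library, without any further treatment. Each library was made from material pooled from 3 goats, so there were no replicates. The study places the dry period 320 days and peak lactation 75 days after lambing, whereas the sample labels give 75 days for the dry period sample and 320 days for the peak lactation sample. The stages used here are those of the sample titles, which go with the clean read totals of the libraries by stage. Tissue and not sorted cells was taken, so fewer cells of a type and less RNA per cell cannot be told apart in any value below.

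Animal miRNAs are cut by Drosha from a primary transcript as a hairpin, which Dicer trims to a short duplex. One strand is loaded into an Argonaute protein and guides it to messenger RNAs through its seed, bases 2 to 8, while the other strand, written with a star, is mostly degraded. miR-21 is among the most abundant miRNAs of many tissues, is known for rising in breast and other tumours, in fibrosis and in inflammation, and represses messenger RNAs such as that of PDCD4.

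The hairpin is shown first because all later results are positions on it. The capitals mark the 2 listed strands, miR-21 at bases 8 to 28 and miR-21* at bases 46 to 66 of 72, with 17 bases between them. The sequences come from the study's lists, and the goat and cattle hairpins were given with the same letters.

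mir-21 precursor: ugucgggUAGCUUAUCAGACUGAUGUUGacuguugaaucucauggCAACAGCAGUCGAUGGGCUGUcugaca

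The listed mature strands, both 21 nt long, follow with the seed in capitals.

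miR-21: uAGCUUAUcagacugauguug

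miR-21*: cAACAGCAgucgaugggcugu

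Of the 346 listed miRNAs, 0 others shared the seed of miR-21 and 0 others that of miR-21*. In the RefSeq annotation of the goat genome (assembly ARS1.2) the gene MIR21 lies between the protein-coding genes VMP1, which acts in autophagy, and TUBD1, which encodes delta-tubulin, and 0 annotated genes overlap it.

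Sequencing depth was similar, with 14851375 clean reads from the dry period library against 15712891 from the other. The listed conserved miRNAs together took a share of 61.1% in the dry period against 14.4% at peak lactation, a log2 ratio of -2.08, so a miRNA that kept its place among the miRNAs was lower in reads per 1000000 clean reads (RPM). These totals hold for the deposited tags under this counting rule. The study's own total of reads matched to conserved miRNAs is larger at peak lactation and smaller in the dry period, so its fall is smaller. Here let-7a and let-7f alone made up 58.9% of the conserved miRNA reads in the dry period but 45.8% at peak lactation. Without their tags the log2 ratio was -1.69. With 3 reads as the smallest count relied on, the depth reached down to 0.202 RPM in the dry period and to 0.191 RPM at peak lactation. All intervals given are 95% intervals of read counting alone and cover neither differences between goats nor library preparation.

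miR-21 was lower per clean read at peak lactation. It had 131526 dry period reads against 37123 peak lactation reads, which is 8856 RPM (interval 8809 to 8904) and 2363 RPM (2339 to 2387). The abundance at peak lactation was 3.75-fold lower, a log2 fold change of -1.91 (-1.92 to -1.89), and the Audic-Claverie probability, which compares the counts of 2 libraries, was too small to be represented as a number. miR-21* was rare in both libraries and was also lower at peak lactation. It had 85 reads, 5.72 RPM (4.63 to 7.08), in the dry period against 19 reads, 1.21 RPM (0.774 to 1.89), at peak lactation. Its log2 fold change was -2.24 (-2.95 to -1.53), with an Audic-Claverie p of 3.3e-12 and a Benjamini-Hochberg adjusted p of 5.2e-12. Both strands passed the study's call rule, which asks for a change of more than 1 in log2 and for p below 0.01.

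These 2 calls were not unusual among the listed miRNAs. Of the 257 that reached 1 RPM in a library, 174 were called lower at peak lactation (67.7%) and 3 higher, and the median log2 fold change was -1.44 (quartiles -2.15 and -0.92). The fold change was more negative than that of miR-21 in 85 of them and more negative than that of miR-21* in 54. The fall of all conserved miRNA reads together, -2.08, was larger than that of miR-21, but without let-7a and let-7f it was -1.69 and smaller.

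**Figure D1:**
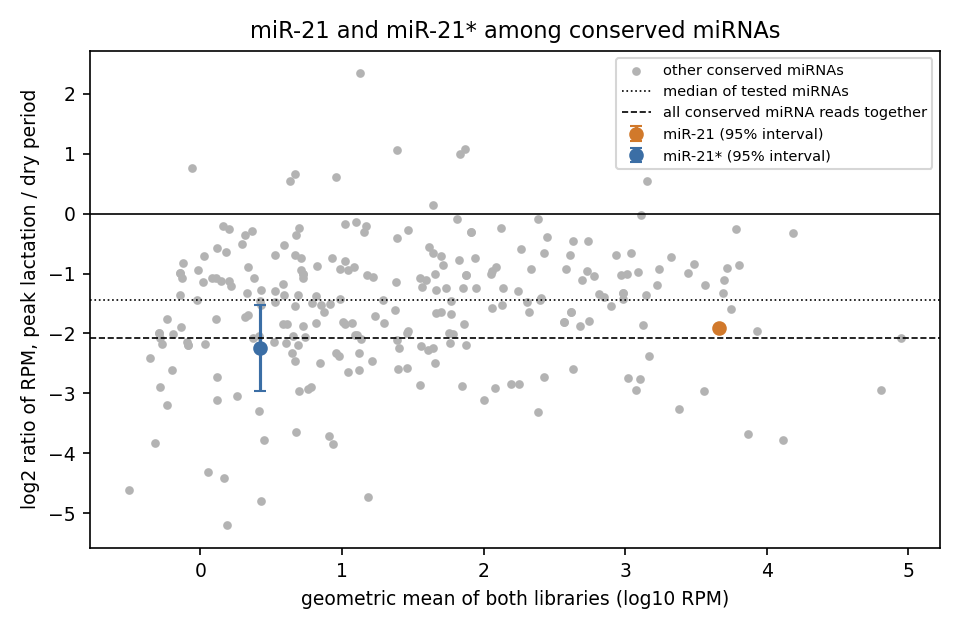
Log2 ratio of RPM, peak lactation over dry period (vertical axis), against the geometric mean RPM of both libraries (horizontal axis, log10) for the 257 conserved miRNAs tested, 1 point each; bars are 95% intervals of read counting, drawn for both members only, and that of miR-21 is smaller than its point. miR-21 (-1.91) and miR-21* (-2.24) lie below the median of -1.44 (dotted line) and close to the ratio of all conserved miRNA reads together, -2.08 (dashed line), and the solid line marks 0. Without let-7a and let-7f that ratio was -1.69, which is not drawn.

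Within the pool of all conserved miRNA reads the order of the libraries turned, but this turn rested on let-7a and let-7f. miR-21 made up 1.45% (1.44 to 1.46) of those reads in the dry period against 1.64% (1.62 to 1.65) at peak lactation, a log2 ratio of 0.18 (0.16 to 0.19) with an Audic-Claverie p of 2.6e-95. With the tags of let-7a and let-7f left out of the pool, a choice made after the data had been seen, it made up 3.52% (3.50 to 3.54) in the dry period but 3.02% (2.99 to 3.05) at peak lactation, a log2 ratio of -0.22 (-0.24 to -0.20). The direction of miR-21 within the miRNAs thus depended on which miRNAs formed the pool. With library factors set by the miRNAs themselves its log2 fold change was -0.61 (TMM factors) and -0.51 (DESeq2 size factors), where the median of the tested miRNAs was -0.14 and -0.04. On the same scales the log2 fold change of miR-21* was -0.16 (-0.87 to 0.55; exact Audic-Claverie p = 0.74) per conserved miRNA read, -0.56 (-1.27 to 0.15) without let-7a and let-7f, -0.94 (-1.65 to -0.23) with TMM factors and -0.85 (-1.56 to -0.14) with DESeq2 size factors. Neither member passed the fold threshold on any of these 4 scales. All 4 were set by the counts made here. The study's own total of conserved miRNA reads, with its smaller fall, was not used as a scale, so the turn and the lost calls hold for these pools only.

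By number of reads miR-21 ranked 9 among the listed miRNAs in the dry period but 13 at peak lactation. In the dry period it followed miR-320 (9733 RPM, 9684 to 9783) and preceded miR-143 (8544 RPM, 8498 to 8591). At peak lactation it followed miR-140 (2426 RPM, 2402 to 2451) and preceded miR-30a-5p (2274 RPM, 2251 to 2298). The counting intervals of miR-21 did not overlap those of its neighbours in either library, but without replicates the spread between goats behind this order was not measured. miR-21* ranked 194 in the dry period against 210 at peak lactation.

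The listed miRNAs with at least 1000 reads in each library whose log2 fold change, over these 2 libraries, lay nearest to that of miR-21 were miR-99a (-1.88), miR-2284x (-1.86) and let-7g (-1.95). let-7g belongs to the let-7 family, which has a different seed, and was the more abundant miRNA in both libraries, at 16817 RPM in the dry period against 4338 RPM at peak lactation. miR-99a was at 916 RPM and 248 RPM.

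miRNAs that mark cell types also differed between the libraries, and their calls are to be read against the 67.7% called lower among all tested miRNAs. The 6 markers of smooth muscle and stroma (miR-143, miR-145, miR-199a-3p, miR-199a-5p, miR-199b and miR-214) summed to 22050 RPM in the dry period against 6529 RPM at peak lactation, with 5 of 6 called lower and a median log2 fold change of -2.48. The 6 epithelial markers, the miR-200 family, miR-141 and miR-205, summed to 2687 RPM and 1342 RPM, with 3 of 6 called lower and a median of -1.10. The 6 immune cell markers (miR-142, miR-155, miR-223, miR-150, miR-146a and miR-146b) summed to 1795 RPM and 1460 RPM, with 3 called lower and a median of -0.90. Most of both sums was miR-146b, at 1300 RPM and 1276 RPM (log2 fold change -0.03). The 3 called lower were miR-142 (-1.64), miR-155 (-1.01) and miR-223 (-2.32). The 2 endothelial markers summed to 129 RPM and 81.4 RPM with 0 called, and the 4 skeletal muscle markers to 7241 RPM and 3847 RPM with 3 called lower. Of the skeletal muscle sums, 7175 RPM and 3835 RPM were miR-1, which was not called. The 3 red blood cell markers summed to 110 RPM and 190 RPM, with 2 called higher. As a share of all conserved miRNA reads the sums of all 6 lists were higher at peak lactation. Smooth muscle and stroma stood at 4.53% against 3.61% in the dry period, epithelium at 0.931% against 0.439% and immune cells at 1.01% against 0.294%. In the smooth muscle and stroma list miR-143 had a log2 fold change of -0.86, against -2.08 for all conserved miRNA reads together. Those of miR-145 (-2.76), miR-199a-3p (-2.96), miR-199a-5p (-2.25), miR-199b (-2.50) and miR-214 (-2.45) were more negative than -2.08, so their own shares were lower at peak lactation. The shares of the lists also depend on the pool and were not computed without let-7a and let-7f. All of these markers were detected in both libraries, and the part of the cell makeup in the values of miR-21 was not tested.

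The reads of miR-21 rested on few tags. There were 203 tags in the dry period against 140 at peak lactation, of which 102 and 66 were single reads, yet the leading 4 tags held 93.4% and 91.9% of the reads. The 89 tags found in both libraries held 99.9% of the dry period reads and 99.8% of the peak lactation reads. The tags that carry the differences in length are printed below in lower case where they follow the hairpin, and with capitals for a 3′ tail, meaning bases after the longest stretch identical to the hairpin.

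miR-21, 20 nt form: uagcuuaucagacugauguu

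miR-21, listed 21 nt form: uagcuuaucagacugauguug

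miR-21, 22 nt form: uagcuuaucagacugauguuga

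miR-21, 23 nt form: uagcuuaucagacugauguugac

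miR-21, 24 nt form: uagcuuaucagacugauguugacu

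miR-21, 22 nt form with A: uagcuuaucagacugauguugaA

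miR-21, 23 nt form with A: uagcuuaucagacugauguugacA

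miR-21, 23 nt form with G: uagcuuaucagacugauguugacG

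miR-21, 20 nt form with A: uagcuuaucagacugauguuA

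The listed 21 nt form was the leading tag in both libraries, with 62953 reads, 47.9% of the reads of miR-21, in the dry period against 15975 reads, 43.0%, at peak lactation. The 22 nt form followed with 35575 reads (27.0%) and 10214 reads (27.5%). The next place changed hands between the libraries: the 20 nt form had 12618 reads (9.59%) in the dry period against 3264 (8.79%) at peak lactation, whereas the 23 nt form had 11635 reads (8.85%) and 4674 (12.6%). Both libraries thus held the same leading forms, and the 23 nt form took a larger share at peak lactation.

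The tags that followed each held 2.23% of the reads or less. The 22 nt form with A had 2082 reads in the dry period against 623 at peak lactation, the 23 nt form with A had 1924 and 826, the encoded 24 nt form 701 and 312, and the 23 nt form with G 597 and 242. The 20 nt form with A had 547 reads and 119, 0.416% of the dry period reads and 0.321% of the peak lactation reads. The 22 nt form can also arise when A is added to the listed 21 nt form, since A is the next base of the hairpin. These origins give identical reads. The same holds for C after the 22 nt form and for U after the 23 nt form.

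Reads longer than the listed sequence made up 41.0% (40.7 to 41.3) of miR-21 reads in the dry period against 46.8% (46.3 to 47.3) at peak lactation, a difference of 5.76 percentage points (5.18 to 6.33, Newcombe interval). Reads of 23 nt rose from 10.6% to 14.5% of the reads and those of 24 nt from 2.71% to 4.02%, and both differences had intervals above 0 (3.53 to 4.32 and 1.10 to 1.53 points). Reads of 21 nt made up 48.5% in the dry period against 43.6% at peak lactation, and reads of 22 nt 27.5% and 27.9%, where the interval of the difference, -0.10 to 0.93 points, included 0. Shorter reads made up 10.5% and 9.67%. miR-21 is also listed in its encoded 24 nt form among the sequenced hairpins, and against that length the longer reads, of 25 nt or more, made up 0.194% and 0.307%. The mean length was 21.46 nt in the dry period against 21.60 nt at peak lactation.

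**Figure D2:**
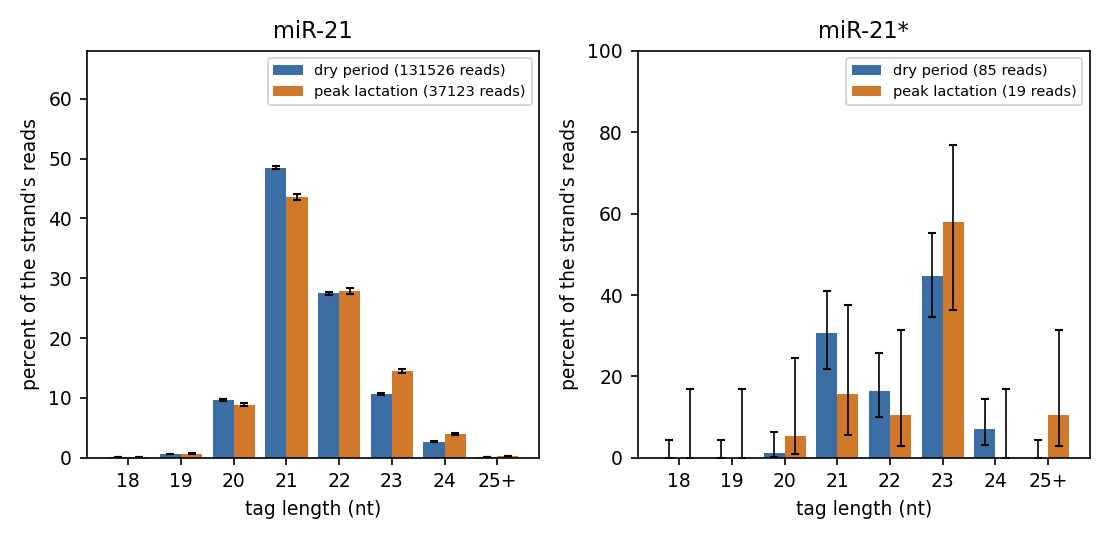
Share of the reads of miR-21 (left panel) and of miR-21* (right panel) by tag length in nt, in the dry period library and the peak lactation library, with 95% Wilson intervals of read counting as error bars. For miR-21 the 21 nt bar is lower and the 23 nt bar higher at peak lactation (48.5% against 43.6%, and 10.6% against 14.5%), while for miR-21*, with 85 and 19 reads, the intervals of both libraries overlap at every length. At 25 nt or more, with 0 of 85 and 2 of 19 miR-21* reads, the interval of the difference was 1.79 to 31.4 points, from a count under the 3 reads relied on.

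The longer mix of miR-21 was set beside that of all 77 listed miRNAs with at least 1000 reads in each library. The share of reads longer than the listed sequence was higher at peak lactation in 44 of them, with a median difference of 0.39 percentage points (quartiles -0.64 and 1.68); the interval lay above 0 in 27 and below 0 in 16. miR-21 had the fifth largest difference of the 77. Those above it were miR-126 (9.11 points), miR-345-3p (8.39), miR-181b (6.70) and miR-23b-3p (5.93), each counted from fewer reads, and their intervals all included the difference of miR-21. By the share itself miR-21 ranked 24 in the dry period against 20 at peak lactation. Listed lengths differed, for example 18 nt for miR-148b and 24 nt for miR-30d, so this rank also depends on where each listed sequence ends. Some of the 77, such as miR-16a and miR-16b, were counted from the same reads.

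**Figure D3:**
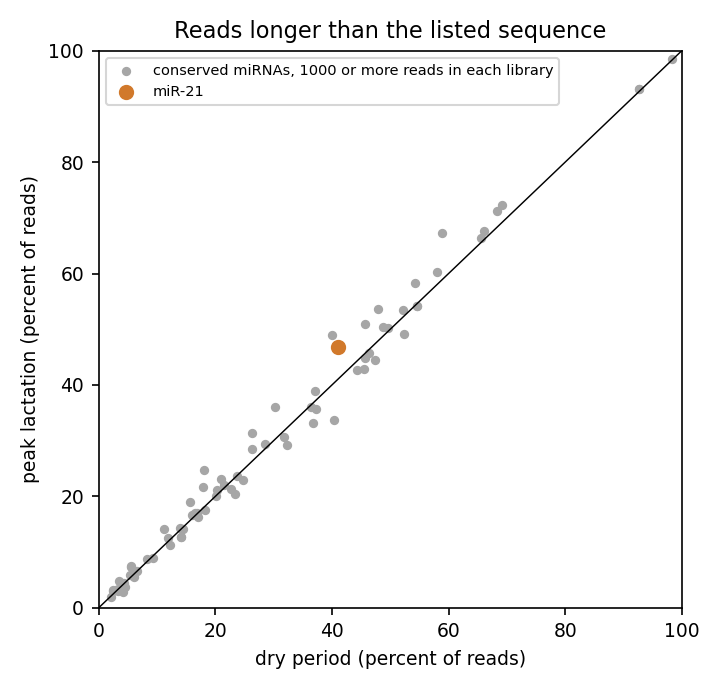
Percent of a miRNA's reads that were longer than its listed sequence, dry period (horizontal axis) against peak lactation (vertical axis), for the 77 conserved miRNAs with at least 1000 reads in each library; the line marks equal shares. miR-21 lies above the line at 41.0% and 46.8%, while the median difference of all 77 was 0.39 percentage points.

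Bases that the hairpin does not encode were found at the 3′ end of 7005 miR-21 reads, 5.33% (5.21 to 5.45), in the dry period against 2399 reads, 6.46% (6.22 to 6.72), at peak lactation, a difference of 1.14 points (0.86 to 1.42). Tails of A alone were the main kind, with 3.84% of the reads in the dry period against 4.62% at peak lactation. Tails of G alone held 0.505% and 0.70%, tails of U alone 0.295% and 0.226%, and tails of C alone 0.221% and 0.256%. Of the kinds made of a single sort of base, U was thus the one with a smaller counted share at peak lactation (difference -0.07 points, -0.12 to -0.01). After base 23 the next base of the hairpin is U, so a U added there counts as encoded. The encoded 24 nt form, which would hold such reads, had 0.533% of the reads in the dry period against 0.840% at peak lactation. The counted share therefore settles neither how rare added U was nor its direction. Most tails were 1 base long, on 4.49% and 5.39% of the reads.

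The share of tailed reads depended strongly on where the encoded stretch ended. It was lowest at the listed end, base 21, at 0.832% (0.764 to 0.905) in the dry period against 0.893% (0.759 to 1.05) at peak lactation, an end after which an added A counts as encoded. At base 20 it was 6.67% and 6.61%, at base 22 6.61% and 6.93%, and at base 23 18.6% (17.97 to 19.2) and 19.6% (18.6 to 20.6). At each of these 4 ends the intervals of the libraries overlapped. The share was higher at base 18, with 38.9% and 40.3%, and at base 19, with 24.2% and 27.2%. Base 18 ended the stretch in 0.209% and 0.180% of the reads, and base 19 in 0.872% and 0.902%. A mismatch in a longer read is scored as an earlier end with a tail, such as AUG after base 18 on 16 and 2 reads. Such reads were not separated from reads with added bases. What differed more was how often an end was used: the encoded stretch ended at base 23 in 10.9% of the reads in the dry period but in 15.7% at peak lactation, and at base 21 in 48.3% and 43.4%. With the ends as used at peak lactation but the dry period tail share at each end, 6.16% of reads would have carried a tail, and with the ends of the dry period but the peak lactation tail shares 5.58%, beside the 5.33% and 6.46% counted; both values were computed after the tail shares had been seen.

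**Figure D4:**
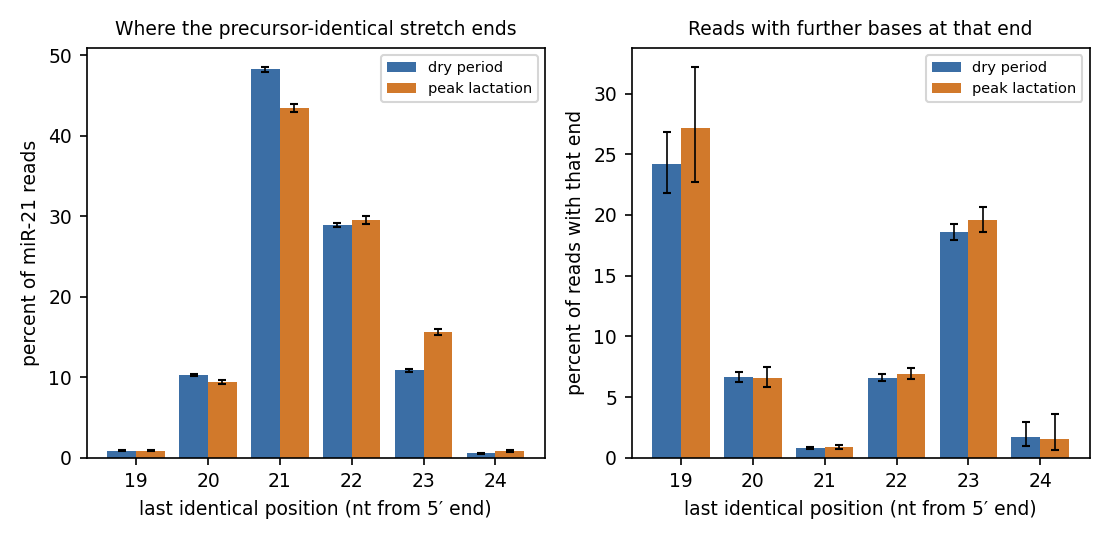
Left, percent of miR-21 reads by the last base identical to the hairpin, counted from the 5′ end of miR-21 (listed end 21). Right, percent of the reads with that end that carried further bases; bars are the dry period and peak lactation libraries, error bars 95% Wilson intervals. End 23 was used more at peak lactation (15.7% against 10.9%), while the share of tailed reads at end 23 was 19.6% and 18.6%.

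Tailed reads were compared across the 15 listed miRNAs with at least 1000 reads in each library whose hairpin sequence was given. miR-21 had the lowest share of tailed reads of the 15 in both libraries. The next lowest was let-7a, at 8.55% in the dry period against 9.77% at peak lactation, the medians were 16.03% and 15.9%, and the highest share was that of miR-181b, at 34.6% and 43.4%. The tailed share was higher at peak lactation in 13 of the 15. For a miRNA whose hairpin goes on with A after its main end, part of the A tails cannot be seen by this measure, and miR-21 is such a case.

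The 5′ end of miR-21 was nearly fixed. Of the reads whose first 18 nt lay in the 5′ arm of the hairpin, 99.6% (99.58 to 99.65) in the dry period against 99.7% (99.62 to 99.74) at peak lactation began at the listed base. A start 1 base later, which moves the seed, was found in 347 reads in the dry period against 83 at peak lactation, and a start 1 base earlier in 63 and 18. The seeds of these forms are shown in capitals.

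miR-21, start 1 base later: aGCUUAUCagacugauguug

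miR-21, start 1 base earlier: gUAGCUUAucagacugauguug

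The star strand began less evenly. Of the reads with their first 18 nt in the 3′ arm, 85 of 121 (70.2%, 61.6 to 77.7) began at the listed base in the dry period against 19 of 27 (70.4%, 51.5 to 84.1) at peak lactation. Starts 1 base later had 18 reads and 3 reads, and starts 2 bases later 18 reads and 5 reads, so that the remaining reads of this arm all had one of these 2 shifted seeds.

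miR-21*, start 1 base later: aACAGCAGucgaugggcugu

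miR-21*, start 2 bases later: aCAGCAGUcgaugggcugu

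The 3′ ends of miR-21* were also mixed. It had 27 tags in the dry period against 9 at peak lactation, 6 of them in both libraries, and the listed 21 nt form held 16 of 85 reads and 3 of 19 reads. Reads of 23 nt made up 44.7% (34.6 to 55.3) in the dry period against 57.9% (36.3 to 76.9) at peak lactation, and the mean length was 22.26 nt and 22.63 nt, above that of miR-21. The 4 forms with the most reads over both libraries together, after the listed one, are printed with the tail in capitals.

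miR-21*, 22 nt form with A: caacagcagucgaugggcugucA

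miR-21*, listed form with AU: caacagcagucgaugggcuguAU

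miR-21*, listed form with AA: caacagcagucgaugggcuguAA

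miR-21*, encoded 23 nt form: caacagcagucgaugggcugucu

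The 22 nt form with A had 9 reads in the dry period against 3 at peak lactation, the listed form with AU 9 reads and 1 read, the listed form with AA 6 reads and 4 reads, and the encoded 23 nt form 7 reads and 3 reads. At peak lactation the form with AA thus had more reads than the listed form, by 1 read. Together, 56 of 85 miR-21* reads (65.9%, 55.3 to 75.1) carried a tail in the dry period against 11 of 19 (57.9%, 36.3 to 76.9) at peak lactation. These intervals lay far above those of miR-21 in the same libraries, at 5.33% and 6.46%. The strands were not measured alike, because the hairpin goes on with A after the listed end of miR-21 but with C after that of miR-21*. An A added at the listed end is thus hidden for miR-21 and seen for miR-21*. Between the libraries the tailed share of miR-21* differed by -7.99 points, with an interval of -31.5 to 13.7, which is too wide to show whether it changed. As for miR-21, encoded bases after a mismatch count in the tail, such as UU after base 19 on 7 dry period reads and 0 at peak lactation. Tails of A alone were on 17 of 85 reads in the dry period against 8 of 19 at peak lactation, a difference of 22.1 points (0.80 to 44.9) taken from among many such shares.

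The ratio of the strands was extreme in both libraries. There were 0.646 miR-21* reads (0.523 to 0.799) per 1000 miR-21 reads in the dry period against 0.512 (0.328 to 0.7995) at peak lactation. By this rule miR-21 had 1547 and 1954 times the reads of its star strand. The rule keeps only reads that begin at the listed base, which leaves out a larger part of the star strand's arm. With the shifted starts, the 3′ arm had 121 reads against 132031 of the 5′ arm in the dry period. At peak lactation it had 27 against 37241, so the excess of miR-21 is smaller by arm. The comparison of the libraries used only the reads that begin at the listed base. Their log2 strand ratio, peak lactation over dry period, was -0.34 with an interval of -1.05 to 0.38 (two-sided Fisher's exact p = 0.41). The interval spans star shares at peak lactation both below and above that of the dry period, so no difference was detectable at this depth. The ratio does not depend on the scaling to clean reads.

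Among the 16 listed pairs of a miRNA and its star strand, 12 had reads of the miRNA in both libraries. miR-21 had the second lowest star share of the 12 in both. Lower still was let-7a*, at 0.0167 per 1000 let-7a reads in the dry period against 0.0695 at peak lactation. The next pairs were miR-99a* at 23.7 and 16.9 per 1000 and miR-142* at 43.2 and 17.8 per 1000. At the other end miR-455* had more reads than miR-455, with 482 against 162 in the dry period, then 84 against 31 at peak lactation.

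**Figure D5:**
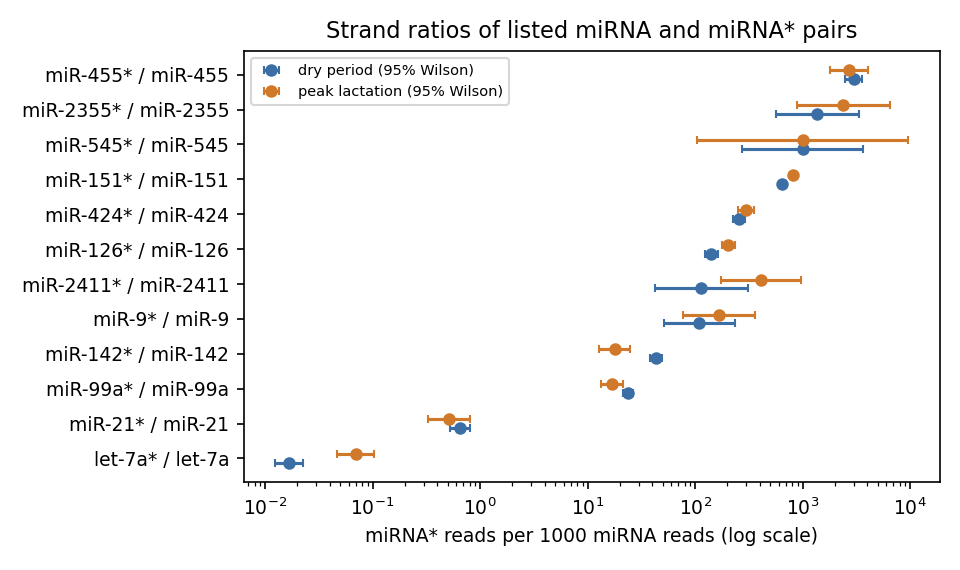
Reads of the star strand per 1000 reads of the miRNA (horizontal axis, log scale) for the 12 listed pairs with reads of the miRNA in both libraries, each library with its 95% interval of read counting, made from Wilson limits of the star share. miR-21 lies at 0.646 in the dry period against 0.512 at peak lactation with overlapping intervals, above let-7a and below the other 10 pairs.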

How the data were processed

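Starting from quality-filtered and adaptor-trimmed reads of at least 18 nt, without poly(A) or empty inserts, the authors deposited every unique tag with its length and read count, neither normalized nor aligned. The submitters' processing notes name CASAVA. Tags were counted here for the listed conserved miRNA to which they were identical over most bases counted from the 5′ end (minimum 18 nt); ties counted for each. RPM is reads per 1000000 clean reads, 0 became 0.01 RPM, and a miRNA had to reach 1 RPM in a library to be tested. The Audic-Claverie probability was two-sided from the smaller tail; fold intervals come from Wilson intervals of the split of reads. With 1 library per stage, p values compare libraries, not stages, and PCR copies could not be told from separate molecules. The members, marker lists and tests were chosen with earlier results of these data known. The counting, tail splitting and test were tested on simulated data. Python 3.11.15, numpy 2.4.6, scipy 1.17.1, matplotlib 3.10.9, R 4.3.3, edgeR 4.0.16 and DESeq2 1.42.0 were used, the last 3 for scaling factors only. The mapping to the bovine genome and the PCR measurements were not used here.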

Additional observations from a re-analysis of the deposited data

How the results depend on the processing

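Leaving out a replicate was not possible with 1 library per stage. No paired analysis was possible because each stage has 1 library. The log2 fold changes kept their direction and their call under the other counting rules, -2.06 to -1.91 for miR-21 and -2.50 to -1.93 for miR-21*. For miR-21* the minimum of 5 reads per tag left 0 reads at peak lactation and gave no value. Scaled to conserved miRNA reads, TMM factors and DESeq2 size factors, miR-21 was at 0.18 (turned), -0.61 and -0.51, miR-21* at -0.16, -0.94 and -0.85, and the miRNAs called lower numbered 15, 48 and 42 instead of 174, with 85, 21 and 28 called higher instead of 3; only the library size used for scaling was changed. With let-7a and let-7f left out of the conserved reads, an alternative chosen after seeing the data, miR-21 was at -0.22, miR-21* at -0.56, and 31 were called lower and 42 higher. The other 4 settings gave 171 to 181. The strand ratio stayed between -0.44 and -0.03 (log2), with two-sided Fisher's exact p from 0.298 to 1.

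Reads longer than listed were 36.4% (dry period) and 40.9% (peak lactation) with encoded bases only, and 86.2% and 84.3% of tags with each tag counted once. Tailed reads were 5.18% and 6.03% with tags of 5 or more reads, 5.09% and 6.21% after a stretch of 20 nt, 4.14% and 4.85% for A alone or U alone, and 96.1% and 94.3% of tags counted once, where peak lactation was the lower of the libraries. Counting each tag once gives rare tags the weight of abundant ones. The 19 reads of miR-21* at peak lactation limit every comparison of that strand.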

Other observations

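Tags with a single mismatch to miR-21 in the first 18 nt, which the counts above leave out, held 3212 reads in the dry period, 2.38% (2.30 to 2.47) of the reads with at most 1 mismatch, and 860 reads, 2.26% (2.12 to 2.42), at peak lactation. The changes with the most reads, written as the listed base, its position from the 5′ end and the base read, were G18U with 275 and 65 reads and C9U with 224 and 55 reads. Mismatches at the first base, just before the seed, made up 0.350% and 0.290%. Sequencing error and changes in the RNA give the same tags and cannot be told apart in these files.

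Among the miR-21 reads with a tail of 3 or more bases, 407 in the dry period against 170 at peak lactation, the tail GUAG was found on 88 and 32 reads. This tail was singled out after its counts had been seen.

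In the hairpin outside both arms, 0 reads of the dry period library and 1 read of the peak lactation library were found, a count under the 3 reads relied on here.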
